A study of Mus musculus with 3 samples.

Results

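The Cyp4a genes of the mouse encode cytochrome P450 enzymes that hydroxylate the far, ω, end of fatty acids. They are described here by the RXRα and RARα bound to them in liver chromatin. The 6 members, Cyp4a12a, Cyp4a12b, Cyp4a14, Cyp4a10, Cyp4a31 and Cyp4a32 in the order in which they lie, were taken by name from the 22380 protein-coding genes of GENCODE M1. For each of them the chromatin within 10 kb of the gene start, the gene body and the whole cluster was examined. All 6 lie side by side on chromosome 4, and between the first and the last of them the annotation places 0 other protein-coding genes, only pseudogenes, among them Cyp4a30b-ps, and a small RNA gene. The stretch with 10 kb on either side, chr4:114961651-115304207 in NCBI37/mm9, spans 342.557 kb. Its right edge reaches into Cyp4b1, a related P450 gene on the opposite strand.

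The study asked what RXRα and RARα bind in the mouse liver. The mice were male C57BL/6, wild type and 3 months old by the labels, which name no treatment and no gene deletion, and the tissue was liver. There were 3 libraries, 1 precipitated with anti-RXRα, 1 of input chromatin that was not precipitated, and 1 precipitated with anti-RARα. With 1 library per antibody nothing was tested between groups, the mice behind a library are not stated in the labels, and every interval below covers counting error only. The RXRα and input tracks hold 9.99994 M and 9.99929 M reads, as coverage in bins of 32 bp in which 1 read covers 5 bins. The paper reports more uniquely mapped RXRα reads than this track holds, and the totals of both tracks are nearly equal. How the tracks were made from the sequenced reads is not stated, and the intervals take the counts in the tracks as reads. For RARα only a peak list with scores is used, which holds no read counts. As a check of the tissue, 7 of 7 hepatocyte marker genes had an RXRα region within 10 kb of the start, as did 39.8% of all protein-coding genes. Of 7 markers of other tissues, 1 had such a region, Gfap, the astrocyte filament gene. The neuronal, muscle, pancreatic, skin and T cell markers Neurod1, Myod1, Myh6, Ins2, Krt5 and Cd3e had none.

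RXRα is the common partner of nuclear receptors such as PPARα, RARα, LXR and FXR, and the pair binds DNA at repeated copies of a short hexamer, AGGTCA. The Cyp4a genes are classical targets of the PPARα and RXRα pair in rodent liver, where fasting or fibrate drugs raise them. Their enzymes start the ω-oxidation of fatty acids, and some of these enzymes act on arachidonic acid in the same way. Cyp4a12a is best known as the form of male mice and Cyp4a14 as more abundant in females. The genes arose by tandem duplication, so that neighbours share long stretches of sequence.

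That duplication sets how far reads can be placed. Cyp4a12a and Cyp4a12b had 98.5% identical coding sequence over 1527 bases. Cyp4a10, Cyp4a31 and Cyp4a32 formed a group with 96.0% to 97.2% identity over 1530 bases. Cyp4a14 stood alone, at 77.3% to 79.3% with the other 5. The same grouping held within 1 kb of the starts, where Cyp4a12a and Cyp4a12b were 98.6% identical and the Cyp4a10 group 91.8% to 93.3%. Across the cluster 53.2% of all 32-base words occurred once in the genome, 16.3% were copied only inside the cluster and its surroundings, and 30.5% were copied elsewhere.

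The sequences below lie at RXRα regions described here, and all are read from the NCBI37/mm9 genome on the + strand. The first 3 lie upstream of Cyp4a10, Cyp4a31 and Cyp4a32, at chr4:115186547-115186627, chr4:115228148-115228228 and chr4:115269388-115269468, at 3 of the 6 RXRα regions of the cluster with at least 100 reads in a bin. Their capitals mark 13 bases that match, with 2 mismatches, 2 copies of the hexamer AGGTCA in a row with 1 base between them, a direct repeat called DR1. They are shown because the 13 bases are the same in all 3 genes, while the 81 bases around them matched the Cyp4a10 sequence at 75 positions in Cyp4a31 and at 72 in Cyp4a32. The 4th sequence is the intron site of Cyp4a12a at chr4:114972732-114972812, with its DR1 match in capitals. The same 81 bases stand in Cyp4a12b at chr4:115085287-115085367 without a difference. The 5th is centred on the highest RXRα bin of Cyp4a14, at chr4:115170248-115170328, where the capitals mark a single copy of the hexamer.
Cyp4a10 upstream: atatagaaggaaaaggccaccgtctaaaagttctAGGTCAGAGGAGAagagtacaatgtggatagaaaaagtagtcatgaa
Cyp4a31 upstream: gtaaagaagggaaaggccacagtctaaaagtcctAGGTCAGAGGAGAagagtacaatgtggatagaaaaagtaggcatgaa
Cyp4a32 upstream: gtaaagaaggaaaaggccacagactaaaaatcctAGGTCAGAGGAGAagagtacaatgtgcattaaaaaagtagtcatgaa
Cyp4a12a intron: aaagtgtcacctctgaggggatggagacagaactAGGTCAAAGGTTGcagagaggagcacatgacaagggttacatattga
Cyp4a14 upstream: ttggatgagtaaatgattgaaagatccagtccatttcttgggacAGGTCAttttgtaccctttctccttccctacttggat

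RXRα was found at every Cyp4a gene, while RARα above the score threshold was found at 1. An RXRα region is a run of bins with at least 20 times the input, where the input is the larger of its value in the bin and the genome mean of 0.603 per bin. All 6 members had such a region within 10 kb of the start, as did 39.8% of all protein-coding genes. A RARα peak with a score above 20 lay within 10 kb of 1 member, Cyp4a32, as it did for 52.2% of all genes. Co-localization, an overlap of a RARα peak and an RXRα region by at least 25% of the narrower of both, was found at the same member, against 23.5% of all genes. These shares are given as the level to read the members' counts against, and no test of the difference was made, since neighbouring copies are not independent.

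**Figure D1:**
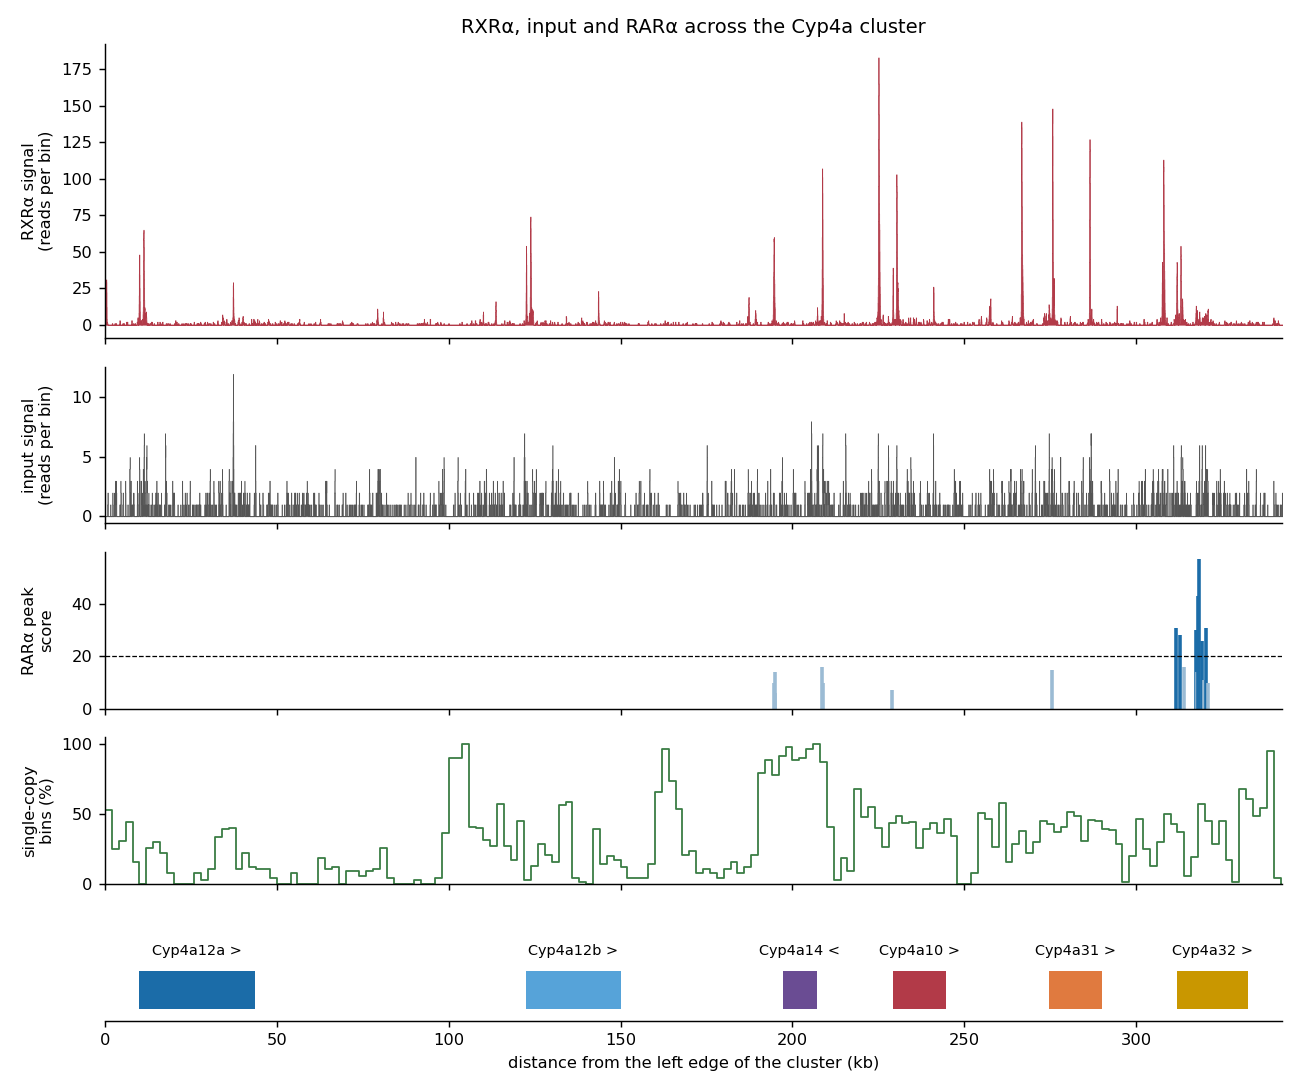
Signal across the Cyp4a cluster against the distance from its left edge in kb. From top to bottom: RXRα signal and input signal as reads per 32 bp bin (on separate scales), RARα peaks as lines at their summits with the score as height (dark above the threshold of 20, marked by the dashed line), the share of bins made only of 32-base words that occur once in the genome, in steps of 2 kb, and the 6 genes with their direction. RXRα reaches 183 upstream of Cyp4a10 while input stays at or below 12, and all dark RARα lines stand at Cyp4a32.

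The Cyp4a10 group carried the most RXRα. Within 10 kb of its start, Cyp4a10, a well-known fasting- and fibrate-induced member, had 724 RXRα reads against 127.6 input reads, a ratio of 5.67 (95% interval 4.68 to 6.88). Cyp4a31, its near copy, had 642.8 against 125.8 reads, a ratio of 5.11 (4.21 to 6.23). Cyp4a32, the third copy, had 613.4 against 156.6 reads, a ratio of 3.92 (3.27 to 4.68). The intervals of Cyp4a10 and Cyp4a31 overlapped widely, and that of Cyp4a32 met the lower end of both.

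The other 3 members formed a lower group. Cyp4a12b had 314 RXRα and 120.8 input reads, a ratio of 2.60 (2.10 to 3.23). Cyp4a12a, the male-type gene, had 297 and 117.6 reads, a ratio of 2.53 (2.03 to 3.14). Cyp4a14 had 268 and 123.8 reads, a ratio of 2.16 (1.74 to 2.70). These neighbours in the order were not separable, since their intervals overlapped, while the upper end for Cyp4a12b at 3.23 lay just below the lower end for Cyp4a32 at 3.27. For comparison, the median of all genes was 1.09 and the middle 50% ran from 0.720 to 1.81. Cyp4a10 and Cyp4a31 exceeded 99.2% and 98.4% of all genes, and Cyp4a14 exceeded 81.7%.

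For both Cyp4a12 genes the value depended on bins that hold copied words. In bins made only of single-copy words, a restriction that drops a bin for 1 copied word, the ratio was 1.43 for Cyp4a12a and 0.843 for Cyp4a12b. Not all of their RXRα lay in copied sequence: the far upstream regions of Cyp4a12a and Cyp4a12b were made of single-copy words to 80.6% and 84.4%. The called region at the Cyp4a12a start was single-copy to 100%, but it was only 32 bp wide, with 9.4 reads. The highest bins of that peak, with 48 reads, lay outside the called region and held copied words. The matching region at the Cyp4a12b start was single-copy to 45.3%. The same restriction left Cyp4a31 at 5.36, Cyp4a10 at 4.41, Cyp4a32 at 3.73 and Cyp4a14 at 2.52. The order of the 2 groups was therefore the same in single-copy sequence. Cyp4a12b then stood below the median of all genes, but that median was taken over all bins and is not a like measure. The restriction also drops the intron region of Cyp4a12b, which had 0% single-copy words.

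**Figure D2:**
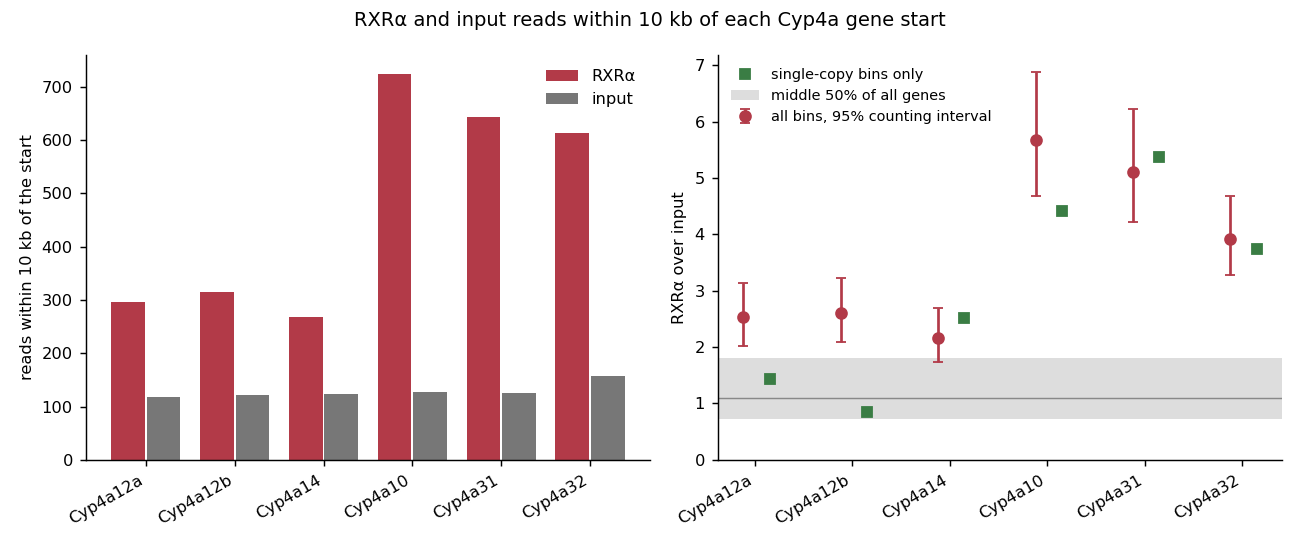
Left, RXRα and input reads within 10 kb of each gene start. Right, RXRα over input: circles use all bins, with bars for the 95% counting interval, and squares use only bins of single-copy words. The grey band and line give the middle 50% and the median (1.09) of all genes, taken over all bins and so not a like measure for the squares. Input is nearly level, from 117.6 to 156.6 reads, while RXRα runs from 268 to 724, and the squares of Cyp4a12a and Cyp4a12b fall into the grey band.

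Local input gives the check on repeated sequence. Within 10 kb of the starts the input was 1.56 to 2.08 times the genome mean, lowest at Cyp4a12a and highest at Cyp4a32, where all genes had a median of 1.07. Over the whole cluster it was 1.32 times the mean (1.25 to 1.38). In bins of single-copy words the input was 1.48 times the mean, so it was at least as high in sequence that is not copied. In bins with no single-copy bin within 5 bins of them the input was still 1.04 times the mean. The read length is not given in the sources used here. The study describes its reads as uniquely mapped, but both tracks hold reads in a stretch identical between the Cyp4a12 genes, given below. The highest input bin of the cluster, 27213 bp inside Cyp4a12a, held 12 input and 29 RXRα reads, a ratio of 2.42, and gave no region.

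Over the gene bodies the 2 groups separated in part. Cyp4a31 had an RXRα over input of 4.95 (4.02 to 6.20) from start to end and Cyp4a10 of 3.96 (3.13 to 5.08). Cyp4a12b stood at 2.24 (1.81 to 2.76), Cyp4a32 at 2.01 (1.63 to 2.50) and Cyp4a12a at 1.66 (1.39 to 1.99). Cyp4a14 had 37.4 RXRα and 56.2 input reads in its body, a ratio of 0.665 (0.424 to 1.02), so that its RXRα site lay outside the gene. In single-copy bins the bodies stood at 5.30 for Cyp4a10, 4.29 for Cyp4a31, 1.86 for Cyp4a32, 1.33 for Cyp4a12a, 1.20 for Cyp4a12b and 0.679 for Cyp4a14, which turned the order of Cyp4a10 and Cyp4a31 and that of Cyp4a12b, Cyp4a32 and Cyp4a12a. Of the whole cluster, the 35.1% of bins within 10 kb of a member start had a ratio of 3.70 (3.42 to 4.01), and the bins further away 1.29 (1.18 to 1.40). Between genes the ratio was 4.88 in the gap from Cyp4a14 to Cyp4a10, 3.39 from Cyp4a31 to Cyp4a32 and 2.98 from Cyp4a10 to Cyp4a31, but 0.939 in the gap of 78.808 kb between Cyp4a12a and Cyp4a12b.

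The cluster held 20 RXRα regions, of which 15 lay within 10 kb of a member start, 12 between genes, 7 in introns and 1 in an exon, of Cyp4a12b. Their median highest signal was 57 reads per bin, against 29 over the 42117 regions of the genome. The highest bins meeting the 20-fold rule reached 183 reads at 4197 bp upstream of Cyp4a10, with 1 input read, 148 in the intron of Cyp4a31 at 1010 bp, with 3, and 139 at 8014 bp upstream of Cyp4a31, with 3. Next came 127 in Cyp4a31 at 11826 bp, with 2 input reads, 113 at 4022 bp upstream of Cyp4a32, with 1, and 107 at 1541 bp upstream of Cyp4a14, with 5. These 6 regions with at least 100 reads lay at 4 of the 6 genes. Only 0.693% of all genes had a bin within 10 kb as high as that of Cyp4a10, compared with 12.2% for Cyp4a12a.

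Seen gene by gene, the regions formed 3 layouts. Cyp4a10, Cyp4a31 and Cyp4a32 each had a far upstream region, at 4197, 8014 and 4022 bp, and an intron region about 1 kb inside the gene, at 1083, 1010 and 938 bp. Cyp4a12a and Cyp4a12b each had a region at 9651 or 8981 bp upstream, a region at the start, 83 or 85 bp upstream, and one 1165 or 1163 bp inside the first part of the gene. Cyp4a14, read from the other strand, had a single region within 10 kb, 1541 bp upstream, and a pair beyond its 3′ end, of 60 reads at 12507 bp and of 14 reads at 19963 bp from its start, the latter with 0% single-copy words. Cyp4a10 also had a region of 39 reads 69 bp upstream of its start, Cyp4a32 one of 43 reads 4406 bp upstream, and the exon region of Cyp4a12b, of 23 reads, lay 20875 bp inside the gene. At the starts themselves, within 500 bp, RXRα peaked at 48 reads in Cyp4a12a, 54 in Cyp4a12b, 39 in Cyp4a10 and 43 in Cyp4a32, but at 12 in Cyp4a14 and 14 in Cyp4a31.

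**Figure D3:**
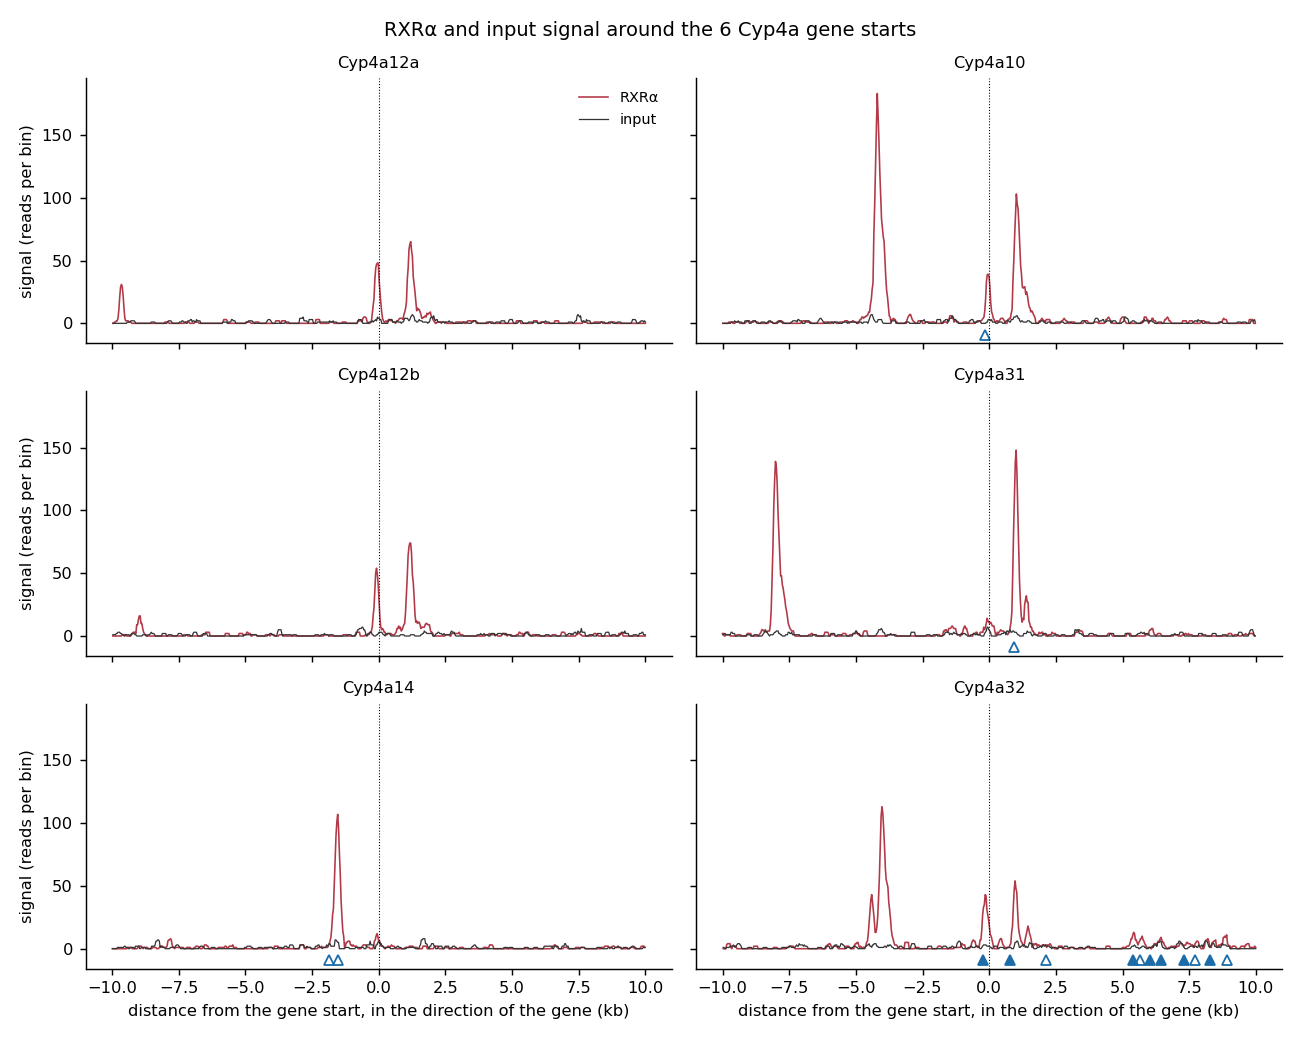
RXRα (red) and input (black) signal in reads per 32 bp bin within 10 kb of each gene start, in the direction of the gene. Triangles mark summits of RARα peaks, filled for a score above 20. The upstream peak of the Cyp4a10 group lies 4197, 8014 and 4022 bp before the start of Cyp4a10, Cyp4a31 and Cyp4a32, and filled triangles appear at Cyp4a32 alone.

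Regions of like sequence could be set side by side, a grouping made after the regions were seen. By alignment, 14 of the 20 regions fell into 6 sets of copies with at least 91.4% identity, and 6 regions had no such partner. Reads were counted in 352 bp around the highest called bin. Each window follows its own region's highest called bin, so the windows of a set need not cover the same bases of the copies. The upstream site, which holds the DR1 match shown above, had 255.8 RXRα reads at Cyp4a10, 200.4 at Cyp4a31 and 165.2 at Cyp4a32, against 5.6, 5.4 and 2.8 input reads. Cyp4a10 exceeded Cyp4a31 by 1.28 times (1.06 to 1.55) and Cyp4a32 by 1.55 times (1.27 to 1.90). The highest bin lay 85, 52 and 124 bp from the centre of the 13 bases in the 3 genes.

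The intron site showed another order. It had 183.2 RXRα reads at Cyp4a31, 150 at Cyp4a10 and 62.6 at Cyp4a32. Cyp4a31 exceeded Cyp4a32 by 2.93 times (2.17 to 3.93), whereas Cyp4a31 and Cyp4a10 were not separable at 1.22 times (0.978 to 1.52). A pair of sites deeper in the genes, at 11826 bp in Cyp4a31 and 11803 bp in Cyp4a10, were 94.2% identical but had 167.4 and 32 reads, a ratio of 5.23 (3.56 to 7.88). Of the 10 pairs compared, the interval of the read ratio left out 1 in 5. All 5 were within the Cyp4a10 group, in whose regions 47.1% to 100% of words were single-copy, and none was between the Cyp4a12 genes. The intron pair of the Cyp4a12 genes, counted among the 10, is 100% identical, so its split of reads could show no difference between the genes. Reads that fit both copies may still have been placed in either, and that share was not tested.

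**Figure D4:**
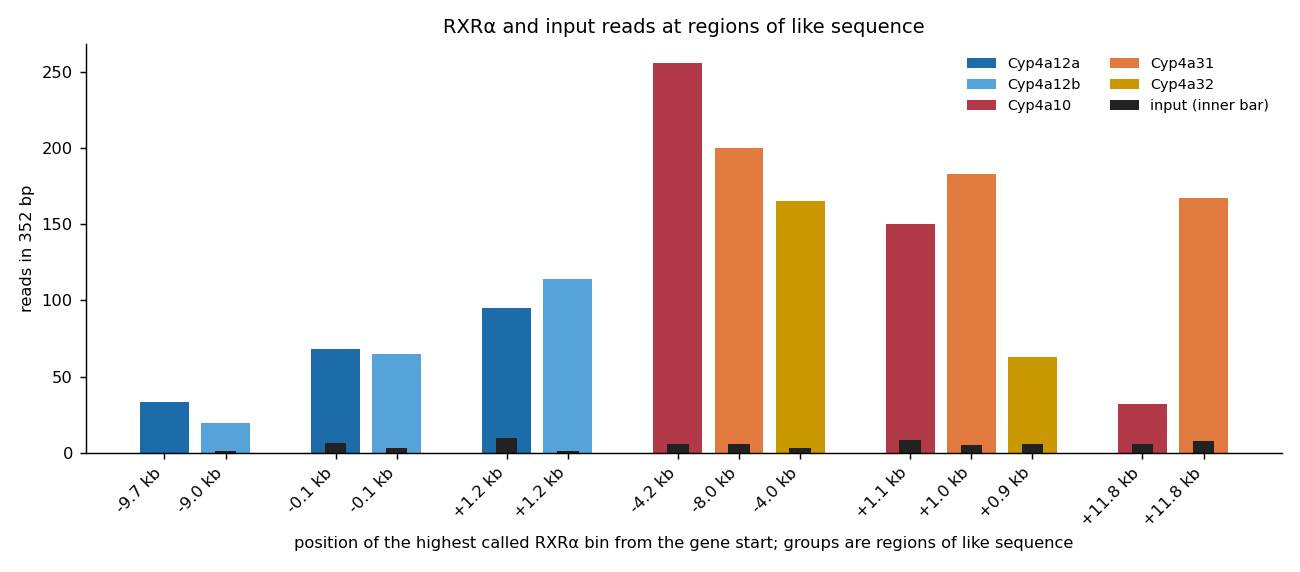
Reads in 352 bp around the highest called RXRα bin for the 6 sets of regions with like sequence, with RXRα as wide bars coloured by gene and input as narrow dark bars. The axis gives the position from the gene start in kb. The pair at 11826 and 11803 bp differs most, with 32 reads in Cyp4a10 and 167.4 in Cyp4a31, and input stays below 10 reads in all 14 regions.

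At the Cyp4a12 genes the copies could not be told apart. The intron regions of Cyp4a12a and Cyp4a12b lie in a stretch of 1617 bp, from 511 to 2127 bp inside Cyp4a12a and from 488 to 2104 bp inside Cyp4a12b, that is the same base for base in both. It held 141.6 RXRα and 24.4 input reads in Cyp4a12a, and 166.8 and 8 in Cyp4a12b. More than 400 bp from either edge, in the inner 817 bp, there were still 123.8 and 143.8 RXRα reads and 15.4 and 3.6 input reads. A read from inside this stretch matches both genes equally, so the RXRα reads describe the pair. The difference in input, which makes RXRα over input 5.80 in one copy and 20.8 in the other, can likewise be assigned to neither gene. The region at the start was 97.8% identical between both genes and had 67.8 and 64.6 RXRα reads. Upstream, 33.4 reads in Cyp4a12a and 19.4 in Cyp4a12b gave a ratio of 1.72 (0.959 to 3.23), which was not detectable as a difference at this depth.

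RARα was concentrated at 1 end of the cluster. The deposited list has 18 peaks there in all, of which 7 had a score above 20, and all 7 were nearest to Cyp4a32. A peak with a score of 31 lay 214 bp upstream of the Cyp4a32 start. The mean RXRα signal over it was 11.9 times input, but it overlapped no called RXRα region, so it did not count as co-localized. A peak with a score of 28, with its summit 791 bp inside the gene, overlapped the intron RXRα region and was the single co-localized one. Its summit lay 147 bp from the highest called bin of that region.

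The other 5 high-scoring peaks stood together in Cyp4a32, in a stretch singled out after its values were seen. With 3 lower peaks beside them they covered 94.3% of 3790 bp, from 5267 to 9056 bp inside the gene, with scores from 10 to 57. The RXRα signal in this stretch reached 13 reads per bin at most, and RXRα over input was 1.996 (1.40 to 2.89). The input was 3.32 times the genome mean there. At the same distances from the start the other 5 genes had 0 RARα peaks of any score, an input of 0.976 to 1.62 times the mean and an RXRα over input of 0.471 to 1.71. Of the words in the stretch of Cyp4a32, 76.3% were single-copy. The RARα library has no input of its own among the files used here, so the part of the raised input in these peaks was not tested.

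The 11 peaks with lower scores, from 6 to 16 where the list's median is 12, included 5 that overlapped RXRα regions. At Cyp4a14 a peak with a score of 16 had its summit 3 bp from the highest RXRα bin, the site at 1541 bp upstream. A peak with a score of 15 lay 74 bp from the intron maximum of Cyp4a31, and one with a score of 7 lay 85 bp from the maximum at the Cyp4a10 start. A pair with scores of 10 and 6 lay on the region beyond the 3′ end of Cyp4a14. With all listed peaks counted, 4 members instead of 1 had a RARα peak, and the same number had a co-localized one. The share of all genes with any listed peak is not given here, so these counts have no level to be read against. The upstream RXRα sites of Cyp4a10, Cyp4a31 and Cyp4a32 had no listed RARα peak of any score. Cyp4a12a and Cyp4a12b had 0 listed peaks within 10 kb. That cannot be read as an absence in their copied sequence, since the treatment of RARα reads that fit both copies is not known. The study calls its reads uniquely mapped, yet the RXRα and input tracks hold reads inside the 1617 bp that both genes share.

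Direct repeats of the hexamer AGGTCA were searched on both strands in 300 bp around each site, with spacings of 1 to 5 bases and at most 2 mismatches over both copies. DR1 occurred in 5 of the 20 RXRα regions, in the 3 upstream sites of the Cyp4a10 group and in the intron site of both Cyp4a12 genes, compared with 14.8% of all RXRα regions. Since these are copies of each other, they stand for 2 sequences. In Cyp4a31 a second match overlaps the one shown. DR4 occurred in 4 regions (8.05% of all), DR3 in 3 (6.48% of all), and DR2 and DR5 in 0 (8.03% and 6.91% of all). Both the DR4 and the DR3 count include the far upstream regions of Cyp4a12a and Cyp4a12b, which are copies of each other. The site upstream of Cyp4a14 had no direct repeat within 2 mismatches. None of the 7 high-scoring RARα peaks held a DR1, which occurred in 5.86% of all such peaks.

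In the promoters, taken as 250 bases before to 50 after the start, DR4 stood in 3 of 6 members against 2.68% of all promoters, and DR1 in 0 against 3.26%. The 3 are again copies, in Cyp4a10, Cyp4a31 and Cyp4a32, with the first base 67, 47 and 119 bp before the start. They are shown because the capitals, the DR4 match, are the same. RXRα at the starts peaked at 39 reads in Cyp4a10 and 43 in Cyp4a32, but at 14 in Cyp4a31. A stretch of 150 bp that holds the match is identical in Cyp4a10 and Cyp4a32, so reads there may have been placed in either gene. The 3 sequences lie at chr4:115190786-115190833, chr4:115236191-115236238 and chr4:115273439-115273486 on the + strand.
Cyp4a10 promoter: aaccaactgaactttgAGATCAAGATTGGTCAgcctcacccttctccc
Cyp4a31 promoter: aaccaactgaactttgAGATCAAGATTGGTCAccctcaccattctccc
Cyp4a32 promoter: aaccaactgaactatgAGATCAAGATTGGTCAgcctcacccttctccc

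Other genes of the pathway were looked up from fixed lists. The level for every list is that of all genes: 39.8% had an RXRα region, 52.2% a RARα peak above the threshold and 23.5% a co-localized one. Of 27 genes of fatty acid oxidation and storage known as PPARα targets, 27 had an RXRα region and 22 a RARα peak above the threshold, and 20 had them co-localized. Their median RXRα over input was 4.46, from 2.32 for Acot2, an acyl-CoA thioesterase, to 8.49 for Ehhadh, the bifunctional enzyme of peroxisomal oxidation. The members' median was 3.26. The 5 without a RARα peak were Acot1, Acot2, Fgf21, Pdk4 and Vnn1, so that in this list too RXRα was present at genes without RARα above the threshold. Some list genes, such as Hadha and Hadhb, share chromatin within their windows.

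Genes that work beside the Cyp4a enzymes had RXRα as well. Of 6 genes for P450 electron donors and later steps of ω-oxidation, 6 had an RXRα region and 5 a RARα peak, with a median RXRα over input of 3.77, from 2.11 for Adh1, an alcohol dehydrogenase without a RARα peak, to 7.39 for Por, the reductase that feeds electrons to microsomal P450 enzymes. The other Cyp4 genes differed among themselves. Of 11 found in the annotation, 6 had an RXRα region, 6 a RARα peak and 4 both co-localized. These are 54.5%, 54.5% and 36.4%, against 39.8%, 52.2% and 23.5% of all genes, so the RARα share was near that level. The median ratio of the 11 was 1.22, against 1.09 over all genes. Cyp4f15 was highest at 4.37 and Cyp4x1 lowest at 0.639. Cyp4f16, Cyp4f18, Cyp4f39, Cyp4f40 and Cyp4x1 had neither a region nor a RARα peak. Cyp4b1, next to Cyp4a32, stood at 1.22.

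**Figure D5:**
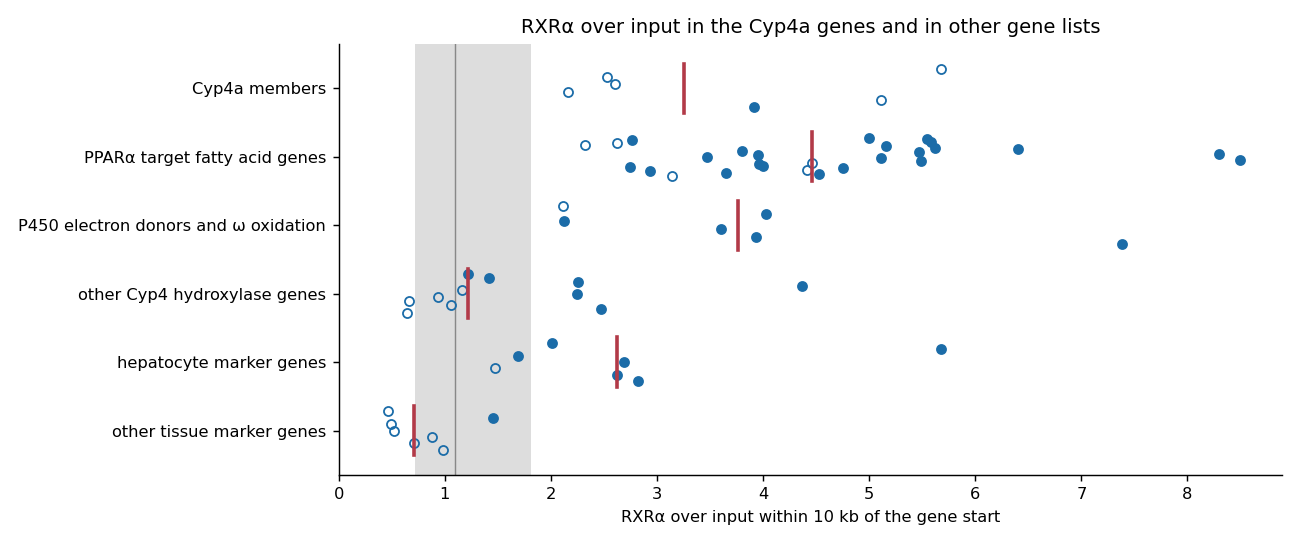
RXRα over input within 10 kb of the gene start for the Cyp4a genes and 5 other lists, 1 circle per gene, filled where a RARα peak with a score above 20 lies within 10 kb. Red bars are list medians, the grey band and line the middle 50% and median of all genes. The Cyp4a genes have a median of 3.26 and 1 filled circle of 6, the PPARα targets 4.46 and 22 of 27.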

How the data were processed

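ChIP-seq libraries of RXRα and RARα and an input library were analysed. Per the labels and the paper's methods, the authors used CASAVA 1.4, Bowtie and MACS. The authors deposited RXRα and input as signal (whole-number coverage in 32 bp bins) and RARα as a list of peaks with a score and a false discovery rate in percent, which was not used as a filter. The deposited list does not state the scale of the score. The file header names mm9, while the methods name mm10 for alignment and NCBI37/mm9 for annotation, so NCBI37/mm9 and GENCODE M1 were used.

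The 2 tracks were brought to an equal mean per bin, and bins at 20 times input within 200 bp were joined. The study's methods gave the 20-fold limit over input, the 10 kb and the 25% overlap, and its results section the score above 20. The study names the 20-fold limit as a background cut-off for its peaks. Here it was applied to single bins of 32 bp, so the regions are not the study's peaks. Intervals are exact at 95% and cover counting error only. Identities come from local alignments of at least 100 bases, and like regions needed 85% identity. The members, all regions and all peaks above the threshold were named, with the highest, lowest and exceptional genes of each list. Cyb5a, Cyp4a29, Cyp4a30b and Cyp4f37 were not found by name in the protein-coding annotation. Region calling was tried on simulated data with planted regions far above or well below the threshold, independent bins and no copied sequence. It therefore does not cover calls near the threshold or in duplicated genes. The members and lists were chosen with earlier results of these data known. Python 3.11.15, numpy 2.4.6, pandas 2.3.3, scipy 1.17.1, pysam 0.24.0, biopython 1.88 and matplotlib 3.10.9 were used. The alternatives changed thresholds, distances, overlap, scaling, the gene start, the cluster flanks and the use of copied sequence.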

Additional observations from a re-analysis of the deposited data

How the results depend on the processing

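All 6 members kept an RXRα region at 30 times input and with the mean input over 1 kb as the reference. At 30 times, Cyp4a12b loses its far upstream region, which reached 26.5 times input. Its start and intron regions remain, which as called at 20 times had 45.3% and 0% single-copy words. Thresholds of 10 and 15 times input and the genome mean input alone also gave 6. These set a lower bar than the main rule, so they could hardly lose a region. Unscaled tracks gave 6 too, where the scale was 0.999935 and so changed next to nothing. Within 1 kb of the start 4 of 6 had a region. Shares of all genes are not given for the changed settings, so these counts have no level to be read against. The number of RXRα regions in the cluster rose from 20 to 33 at 10 times input. The RARα counts turned on the score. With all listed peaks, 4 members had a RARα peak, 4 had a co-localized one and the cluster held 18 peaks instead of 7, and above a score of 50 the cluster held 1 peak and 0 members had a co-localized one. Within 50 kb of the start instead of 10 kb, 2 members had a peak above 20 and 2 a co-localized one, since the window of Cyp4a31 then takes in the peaks of Cyp4a32. In single-copy bins RXRα over input across the cluster was 2.65 instead of 2.38, and the input was 1.48 instead of 1.32 times the genome mean. Scaling without the mitochondrial chromosome moved 0 of 13 values beyond their counting interval. No paired analysis was possible because each antibody has 1 library and no result comes from a test. Single bins hold few input reads, so ratios in one bin are imprecise, and copied sequence limits both Cyp4a12 genes most.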
